A study of Mus musculus with 15 samples.

Results

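The clustered replication-dependent histone genes encode the core histones H2A, H2B, H3 and H4 and the linker histone H1. They are mostly short and lie in 3 groups on mouse chromosomes 13, 3 and 11. They were chosen by symbol or older symbol (Hist1h, Hist2h, Hist3h) within chromosome 13 at 21.5 to 24 Mb, chromosome 3 at 96.1 to 96.4 Mb and chromosome 11 at 58.9 to 59 Mb of the RefSeq annotation of GRCm38.p6 (mm10). This gave 69 of 21890 genes, which are the 21887 protein-coding genes and the 3 histone pseudogenes. They comprised 6 genes of H1, 20 of H2A, 19 of H2B, 12 of H3 and 12 of H4, and 66 were protein-coding. Chromosome 13 held 56 of them, chromosome 3 held 10 and chromosome 11 held 3. The class was read from the older name, which makes H4bc24, once Hist1h2br, an H2B gene.

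The study compared genotypes of the kinase gene Mtor in sorted haematopoietic stem cells (HSC) of adult mice given poly(I:C). Accessible chromatin was mapped by ATAC-seq, in which a transposase cuts open DNA in nuclei, from 50000 cells per library for 30 min at 37 °C. Each genotype had 1 library: KI (Mx1-Cre+/-;mTORflox/knockin), KO (Mx1-Cre+/-;mTORflox/flox) and WT (Mx1-Cre-/-;mTORflox/flox). The other 12 samples, RNA-seq of the same genotypes, were not analysed here. Poly(I:C) induces interferon, which turns on the Mx1 promoter and so Cre, and all genotypes received it, whereas WT mice carried no Cre. Cre under this promoter acts in many tissues and not in HSC alone. The labels give neither the base change of the knock-in allele, nor the exons removed by Cre, nor the number of mice per library. The KO and WT libraries are marked as re-analyzed and the KI library is not, so in KI against WT and KI against KO genotype cannot be told apart from that difference, which does not separate KO from WT. With 1 library per genotype there was no replicate error and no test, and "gained" and "lost" below are differences between peak lists only. In bulk cells, an open site in fewer cells and a less open site in each cell cannot be told apart.

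Histone proteins package DNA, and a dividing cell must make a new set of them while it copies its genome. Most of the clustered genes are switched on together in S phase, in nuclear bodies organised by NPAT, the activator of histone transcription. Their mRNAs as a rule lack introns and end in a stem-loop bound by SLBP instead of a poly(A) tail. Many H2A and H2B genes stand head to head as divergent pairs that share a short promoter, and in human and mouse cells CCAAT boxes, TATA boxes, the octamer bound by OCT1 and class-specific elements have been described in these promoters.

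The sequences upstream of selected starts are shown first, because they lie within the promoter windows described below, which gene-end peaks need not reach. They are RefSeq GRCm38.p6 sequence, 5′ to 3′ on the strand named, each ending at the base before the annotated start. Capitals mark TATAAA and CCAAT on either strand throughout (TTTATA and ATTGG on the other strand), ATTTGCAT in H2A and H2B genes, GGTCC in H4 genes (GGACC on the other strand) and AAACACA in H1 genes. The first 2 lines are the whole gaps between the starts of divergent H2A and H2B genes, one pair uncovered in KO and one covered in every library. H2bc18 and H3c8 follow as core histone promoters covered in KI and KO but not in WT. H4c9, H4c8 and H4c6 are H4 promoters that differed between libraries, and H4c2 is one without a peak in any. H1f3 and H1f4 are linker histone promoters that differed, and H1f1 is the H1 promoter without AAACACA.
H2ac12 to H2bc12, chr13:22035644-22035820, plus strand: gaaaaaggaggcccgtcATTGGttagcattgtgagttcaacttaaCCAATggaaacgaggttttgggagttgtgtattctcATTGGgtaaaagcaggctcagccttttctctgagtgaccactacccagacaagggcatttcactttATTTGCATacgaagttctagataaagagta
H2ac22 to H2bc22, chr13:21787249-21787487, plus strand: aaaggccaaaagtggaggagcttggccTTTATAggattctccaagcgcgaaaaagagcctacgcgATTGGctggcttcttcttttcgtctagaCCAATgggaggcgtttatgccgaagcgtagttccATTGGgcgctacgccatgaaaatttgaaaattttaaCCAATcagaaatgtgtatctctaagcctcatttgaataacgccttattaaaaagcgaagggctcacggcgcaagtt
H2bc18, chr3:96269450-96269699, plus strand: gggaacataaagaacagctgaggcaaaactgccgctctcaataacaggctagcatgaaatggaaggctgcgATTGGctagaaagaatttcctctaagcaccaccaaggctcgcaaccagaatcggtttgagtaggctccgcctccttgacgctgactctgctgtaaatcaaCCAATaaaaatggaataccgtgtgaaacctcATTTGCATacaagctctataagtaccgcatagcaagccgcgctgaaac
H3c8, chr13:23535168-23535417, plus strand: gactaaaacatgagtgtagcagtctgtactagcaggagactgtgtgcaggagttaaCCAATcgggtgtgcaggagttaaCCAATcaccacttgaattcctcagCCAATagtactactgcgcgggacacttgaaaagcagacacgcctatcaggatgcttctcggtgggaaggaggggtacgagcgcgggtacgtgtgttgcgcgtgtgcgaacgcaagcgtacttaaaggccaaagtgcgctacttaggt
H4c9, chr13:22041363-22041462, minus strand: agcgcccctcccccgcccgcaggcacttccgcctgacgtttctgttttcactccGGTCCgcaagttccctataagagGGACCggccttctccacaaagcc
H4c8, chr13:23530944-23531043, plus strand: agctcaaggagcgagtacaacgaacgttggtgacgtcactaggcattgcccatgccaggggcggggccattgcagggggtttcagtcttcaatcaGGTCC
H4c6, chr13:23551669-23551768, minus strand: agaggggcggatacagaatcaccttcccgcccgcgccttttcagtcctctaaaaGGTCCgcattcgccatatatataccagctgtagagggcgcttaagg
H4c2, chr13:23756837-23756936, plus strand: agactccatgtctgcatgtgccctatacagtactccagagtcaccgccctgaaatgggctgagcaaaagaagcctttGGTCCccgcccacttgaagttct
H1f3, chr13:23554902-23555031, plus strand: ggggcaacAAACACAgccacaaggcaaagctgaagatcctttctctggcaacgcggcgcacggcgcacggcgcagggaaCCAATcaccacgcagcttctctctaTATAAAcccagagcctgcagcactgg
H1f4, chr13:23622559-23622688, minus strand: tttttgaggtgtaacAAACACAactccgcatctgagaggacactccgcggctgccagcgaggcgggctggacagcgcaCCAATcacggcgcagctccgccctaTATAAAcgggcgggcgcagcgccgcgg
H1f1, chr13:23763538-23763667, plus strand: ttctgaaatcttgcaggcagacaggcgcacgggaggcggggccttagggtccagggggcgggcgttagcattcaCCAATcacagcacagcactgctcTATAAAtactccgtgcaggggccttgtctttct

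RefSeq promoter sequences, 250 bases before to 50 after the start, were matched for 61 of the 69 histone genes, with 1 promoter per gene. The 27025 promoters set beside them for motifs outnumber the 21890 genes. They are a different set from the 17492 promoters, 1 per gene, used for peaks further below. CCAAT was present in all 50 promoters outside the H4 class, in 3 of 11 H4 promoters and in 37.9% of 27025 promoters of all genes. GGTCC showed the opposite distribution, with 10 of 11 H4 promoters, 15 of the 50 others and 45.4% of all promoters. In each of those 10 H4 promoters a forward GGTCC began within 60 bases of the start, most often at -46, where it stood in 4 of them, including H4c9 and H4c6. AAACACA was found in 5 of 6 H1 promoters, between -122 and -112, against 7.14% of all promoters. The octamer ATTTGCAT was held by 6 of 16 H2B and 7 of 18 H2A promoters, by none of the H1, H3 and H4 promoters, and by 1.75% of all promoters. TATAAA occurred in 35 of 61, against 14.2% of all promoters. TTTGGCGC was in none of the 61, against 0.537% of all, and TTTCCCGC was in 1, against 1.11%. All motifs were searched on both strands, no listed motif contains another, and a match is a description of sequence and not a binding site.

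The deposited peak lists held 28391 peaks in KI, 19189 in KO and 17316 in WT, covering 16540696 bp in KI, 11464900 bp in KO and 11613877 bp in WT. Each peak carries a score that is the authors' own, with a lowest value of 50 in KI, 50 in KO and 50.01 in WT. Read depth is unknown, because the files hold no counts. A peak overlapped the annotated start of Mtor in KI, at percentile 82.1 of its list, and in WT, at percentile 96.7, and none did in KO. That peak does not check the deletion, since the removed exons are not known here. Of 15 HSC marker genes, 8 had a peak within 1 kb of a gene end in KI, 5 in KO and 9 in WT, and Slamf1, Gata2, Tek, Erg, Fgd5 and Ly6a had none in any list. Erythroid markers with one numbered 5 in KI, 3 in KO and 2 in WT of 9, and myeloid markers 4 in KI, 0 in KO and 0 in WT of 10. B lymphoid markers numbered 2 in KI, 0 in KO and 1 in WT of 10, and T and NK markers 2 in KI, 1 in KO and 1 in WT of 10. Over all annotated genes the shares with such a peak were 51.4% in KI, 44.2% in KO and 44.2% in WT. Marker peaks found in KI alone ranged from percentile 7.6 (S100a9) to 70.4 (Cd79a). Whether the KI library held more cells of other types was not tested. The longer KI list and these marker counts move with the KI calls below, and their part in those calls was not tested.

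Most of the clustered histone genes lay at open chromatin in every genotype. A peak within 1 kb of either gene end, called a gene-end peak, was found at 58 of 69 genes in KI, 52 in KO and 53 in WT. These are 84.1% in KI (Wilson 95% interval 73.7 to 90.9), 75.4% in KO (64.0 to 84.0) and 76.8% in WT (65.6 to 85.2). Over all annotated genes the shares were 51.4% in KI, 44.2% in KO and 44.2% in WT. A set of 47 histone genes (68.1%) had a peak in all 3 lists, against 39.2% of all genes, and 8 (11.6%) had none in any, against 46.1%. The remaining 14 genes differed between the lists. Neighbouring genes share peaks here, so genes are not independent: the peaks numbered 38 in KI, 31 in KO and 36 in WT, of which 19 in KI, 18 in KO and 21 in WT served a pair of histone genes and 6 in KI, 6 in KO and 4 in WT served 3. They were 0.134% of the KI list (Wilson 95% interval 0.0975 to 0.184), 0.162% of the KO list (0.114 to 0.229) and 0.208% of the WT list (0.150 to 0.288).

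**Figure D1:**
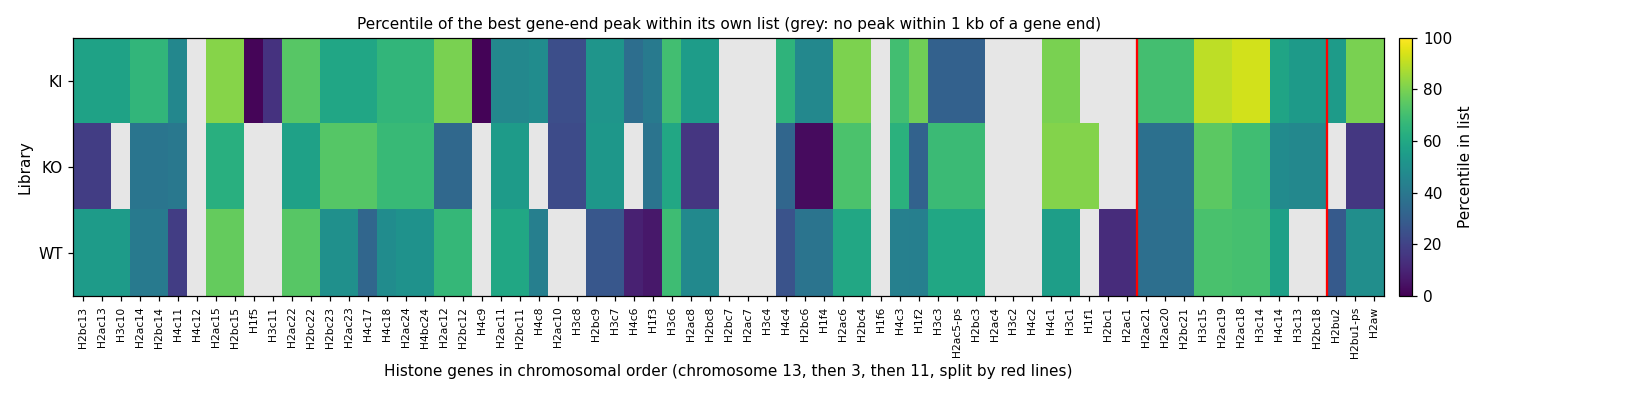
Percentile, within its own list, of the highest-scoring gene-end peak of each of the 69 histone genes (columns, in chromosomal order, chromosomes 13, 3 and 11 split by red lines) in the KI, KO and WT libraries (rows). Grey cells are genes without such a peak; 8 columns are grey in every row. Percentiles belong to lists of different lengths and are not comparable between rows.

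By class, gene-end peaks covered the H2A and H2B genes nearly alike in the 3 lists and the H3 and H4 genes less so. On the promoter window, given below, H2B genes differed too, with 14 touched in KI, 10 in KO and 13 in WT of 16. Gene-end peaks stood at 17 of 20 H2A genes in each of KI, KO and WT, and at 17 in KI, 16 in KO and 17 in WT of 19 H2B genes, whose products form the H2A and H2B dimers of the nucleosome. For H3, which forms the core tetramer with H4, the counts were 10 in KI, 8 in KO and 7 in WT of 12. For H4 they were 10 in KI, 7 in KO and 9 in WT of 12. The 6 linker H1 genes gave 4 in KI, 4 in KO and 3 in WT. By location, 45 in KI, 40 in KO and 42 in WT of the 56 genes on chromosome 13 had a peak. On chromosome 3 it was 10 in KI, 10 in KO and 8 in WT of 10, and on chromosome 11 it was 3 in KI, 2 in KO and 3 in WT of 3. Whether the classes differ in this was not tested.

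**Figure D2:**
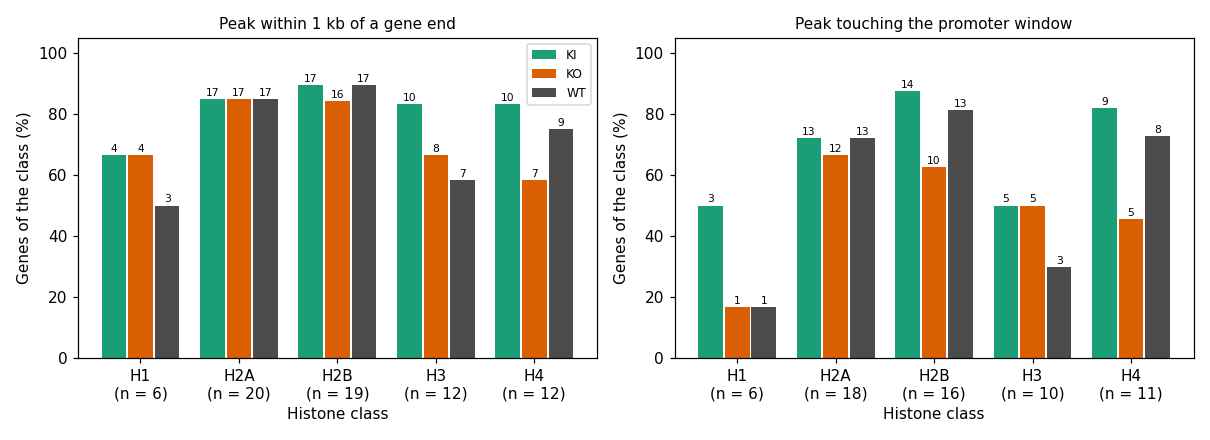
Share of genes in each histone class with a gene-end peak (left, 69 genes) and with a peak touching the promoter window (right, the 61 genes with a RefSeq promoter) in the KI, KO and WT libraries. Bars start at 0, the numbers on top are gene counts, and each bar is 1 library, so there are no error bars. H4 promoters touched numbered 9 in KI, 5 in KO and 8 in WT.

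Peaks at histone genes were of middling score within each list. The percentile of a peak is the share of its own list, itself included, that scored no higher. The highest-scoring gene-end peak of the histone genes had a median percentile of 59.3 in KI, 53.9 in KO and 50.3 in WT. The same median over all genes with a gene-end peak was 78.2 in KI, 72.0 in KO and 69.5 in WT. A percentile above 75 was reached by 15 of 58 such histone genes in KI (25.9%), 3 of 52 in KO (5.77%) and 2 of 53 in WT (3.77%), against 55.8% of all genes with a peak in KI, 45.5% in KO and 42.4% in WT. Their median width was 1014 bp in KI, 699 bp in KO and 861 bp in WT, against 762 bp in KI, 684 bp in KO and 739 bp in WT over all genes. In the WT list the highest percentile belonged to H2ac15 and H2bc15, a divergent pair under 1 peak, with 81.9 in KI, 63.0 in KO and 76.2 in WT. The KI list placed H2ac18 and H3c14 on chromosome 3 highest, with 93.3 in KI, 69.2 in KO and 70.5 in WT. H3c15, the highest H3 gene in WT, stood at 89.9 in KI, 74.7 in KO and 71.3 in WT. H4c14 was the highest H4 gene in WT, at 58.5 in KI, 48.2 in KO and 57.0 in WT. H3c7 was the lowest H3 gene in WT, at 27.2, by a peak inside the gene. At that place KO stood at 6.5 and KI had no peak. The best H3c7 values in KI, 52.1, and in KO, 52.9, came from another peak, at its neighbour H2bc9, where WT stood at 6.2.

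**Figure D3:**
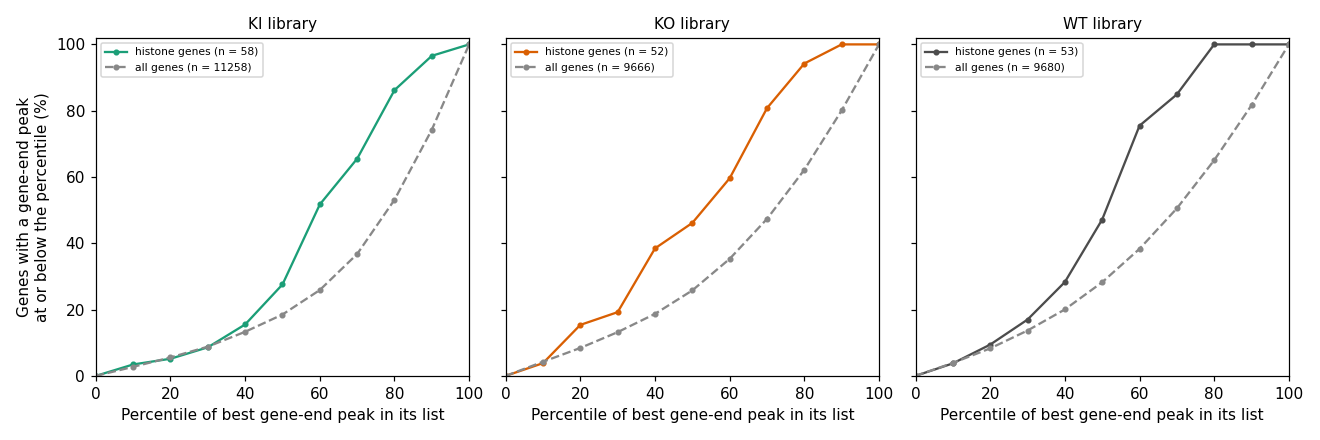
Cumulative share of genes (vertical axis, percent of genes with a gene-end peak) whose best peak lies at or below each percentile of its own list (horizontal axis), for histone genes (solid) and all genes (dashed) in the KI, KO and WT libraries. In every panel the histone curve lies above that of all genes from percentile 40 to 80, so its peaks sit lower in the list; no WT histone peak lies above percentile 80.

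The KI list gained more histone genes over WT than it lost. Of the 16 histone genes without a WT peak, 7 had one in KI (43.8%, interval 23.1 to 66.8), against 15.5% of all genes without a WT peak. Of the 53 with a WT peak, 2 had none in KI (3.77%, interval 1.04 to 12.8), against 3.29%. The 7 gained genes lay under 5 peaks, since H3c13 and H2bc18 shared one and H2ac10 and H3c8 another. The lost genes were H2bc1 and H2ac1, which encode the testis histones TH2B and TH2A and share a single WT peak of 360 bp with a score of 57.52, at percentile 12.6. When every list was kept to its 17316 highest-scoring peaks, the length of the WT list, KI gained 2 of the 16 histone genes and lost 6 of the 53. The shares over all genes were 7.77% and 8.45%. At equal lengths the number gained thus did not exceed the number lost, but fewer genes could be gained than lost.

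The KO list both gained and lost histone genes against WT. It had a peak at 5 of the 16 genes without one in WT (31.2%, interval 14.2 to 55.6), against 8.21% of all such genes. It lacked one at 6 of the 53 with one in WT (11.3%, interval 5.29 to 22.6), against 10.5%, a share close to the background. The KO gains were H3c13, H2bc18, H2ac10 and H3c8, all shared with KI, and H1f1. The KO losses were H2bc1, H2ac1, H2bu2, H3c10, H4c8 and H4c6. At equal list lengths KO gained 5 of the 16 and lost 8 of the 53, against 6.67% and 12.7% of all genes. Both mutants are set against the same WT library, so their shared gains are not independent of each other.

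KI was also set against KO. KI had a peak at 7 of 17 histone genes without one in KO (41.2%, interval 21.6 to 64.0), against 15.6% of all genes. It lacked 1 of 52 (1.92%, interval 0.340 to 10.1), against 3.25%. At equal lengths 50 of the 69 histone genes had a KO peak. KI then lacked 6 of those 50, against 7.12% of all genes, and gained 5 of the rest, against 9.55%. The 7 were H1f5, H3c11, H4c9, H2bu2, H3c10, H4c8 and H4c6, and the 1 was H1f1.

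The genes present in both mutants and missing from WT lay under 2 peaks of moderate score. H2bc18, an H2B gene on chromosome 3, and its neighbour H3c13 had a peak at chr3:96269232-96269943 in KI, with a score of 101.49 at percentile 54.4. In KO it was chr3:96269263-96269818, with a score of 82.95 at percentile 46.5, and WT had none. Both peaks covered the whole H2bc18 promoter window, with the octamer and CCAAT boxes shown above, and neither reached that of H3c13. H3c8 and its neighbour H2ac10 had a peak at chr13:23534790-23535893 in KI, at percentile 23.9, and at chr13:23534910-23535626 in KO, at percentile 22.9. It covered the H3c8 promoter in both mutants and that of H2ac10 in neither.

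The genes with a peak in KI alone had weak ones. The H4c9 peak in KI scored 50.51, at percentile 0.9, and covered 263 of the 300 bases of its promoter window. The H1f5 peak in KI scored 50.77, at percentile 1.4, and lay beyond the end of the gene, 1312 bp from its start by its centre. H3c11 had a peak over its start in KI, with a score of 58.15 at percentile 14.6. None of these peaks is kept at equal list lengths, where the lowest KI score is 77.95.

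Of the 4 genes with a peak in KI and WT but not in KO, 3 had no KO peak nearby. H2bu2, an H2B gene on chromosome 11, had percentile 54.8 in KI and 28.4 in WT, and the nearest KO peak was 5106 bp away. H4c8 had peaks of 1150 bp in KI, at percentile 48.6, and 1261 bp in WT, at percentile 43.0, with the nearest KO peak at 3432 bp. H4c6 stood at percentile 36.1 in KI and 9.1 in WT, with the nearest KO peak at 3380 bp. H3c10 differed only in reach: the peak over H2bc13 and H2ac13 came within 619 bp of it in KI and 915 bp in WT, and ended 1098 bp away in KO. In the same way the H1f1 call in KO came from the peak over H4c1 and H3c1, which was 1222 bp wide in KI, 1927 bp in KO and 1739 bp in WT and ended 1686 bp from H1f1 in KI, 842 bp in KO and 1116 bp in WT.

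Because neighbouring genes lie within 1 kb of each other, the calls were repeated on the promoter window of 250 bases before to 50 after the start, a measure added after the data were examined. A peak touched 44 of 61 histone promoters in KI (72.1%), 33 in KO (54.1%) and 38 in WT (62.3%), against 48.7% in KI, 42.3% in KO and 42.7% in WT of 17492 promoters of all genes. KO lost 10 of the 38 promoters touched in WT (26.3%), against 10.5% of all genes. It gained 5 of 23 (21.7%), against 7.26%. KI gained 7 of 23 (30.4%), against 12.8%, and lost 1 of 38 (2.63%), against 3.16%. The 10 promoters lost in KO were those of H2ac19, H2bu2, H4c17, H2ac12, H2bc12, H4c8, H4c6, H2bc6, H1f2 and H2bc3, and KI touched all of them. Of these, only H2bu2, H4c8 and H4c6 also lacked a gene-end peak in KO. The others had a KO gene-end peak that did not touch the window, so they differ in the place or reach of peaks. H2ac12 and H2bc12 lie under 1 peak in WT and are not independent. The KI gains were H2ac18, H2bc18, H3c11, H4c9, H3c8, H1f3 and H1f4, its loss was H2ac21, and the KO gains were H2ac18, H2bc18, H3c8, H1f3 and H3c3. A touched window need not be touched upstream: the H1f3 peak in KO began 16 bp after the start and the H2bu2 peak in WT 3 bp after. At equal list lengths KO again lost 10 of 38 and gained 5 of 23, against 12.4% and 6.07% of all genes. KI then gained 3 of 23 and lost 4 of 38, against 7.27% and 7.62% of all genes, and touched 7 of the 10. Of the 10, H2ac19 and H4c17 share 50-base stretches with another histone promoter (67.7% of those of H2ac19 with H2ac18, 94.0% of those of H4c17 with H4c18), and whether reads were placed uniquely there was not tested. The near copies H2ac19 and H2ac18 were called in opposite directions in KO.

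By class, H4 promoters touched numbered 9 in KI, 5 in KO and 8 in WT of 11, and H2B promoters 14 in KI, 10 in KO and 13 in WT of 16. H2A promoters numbered 13 in KI, 12 in KO and 13 in WT of 18. H3 promoters numbered 5 in KI, 5 in KO and 3 in WT of 10, and H1 promoters 3 in KI, 1 in KO and 1 in WT of 6. Promoters of H2A and H2B genes with the octamer were touched in 10 of 13 in KI, 7 in KO and 9 in WT, and those without it in 17 of 21 in KI, 15 in KO and 17 in WT.

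**Figure D4:**
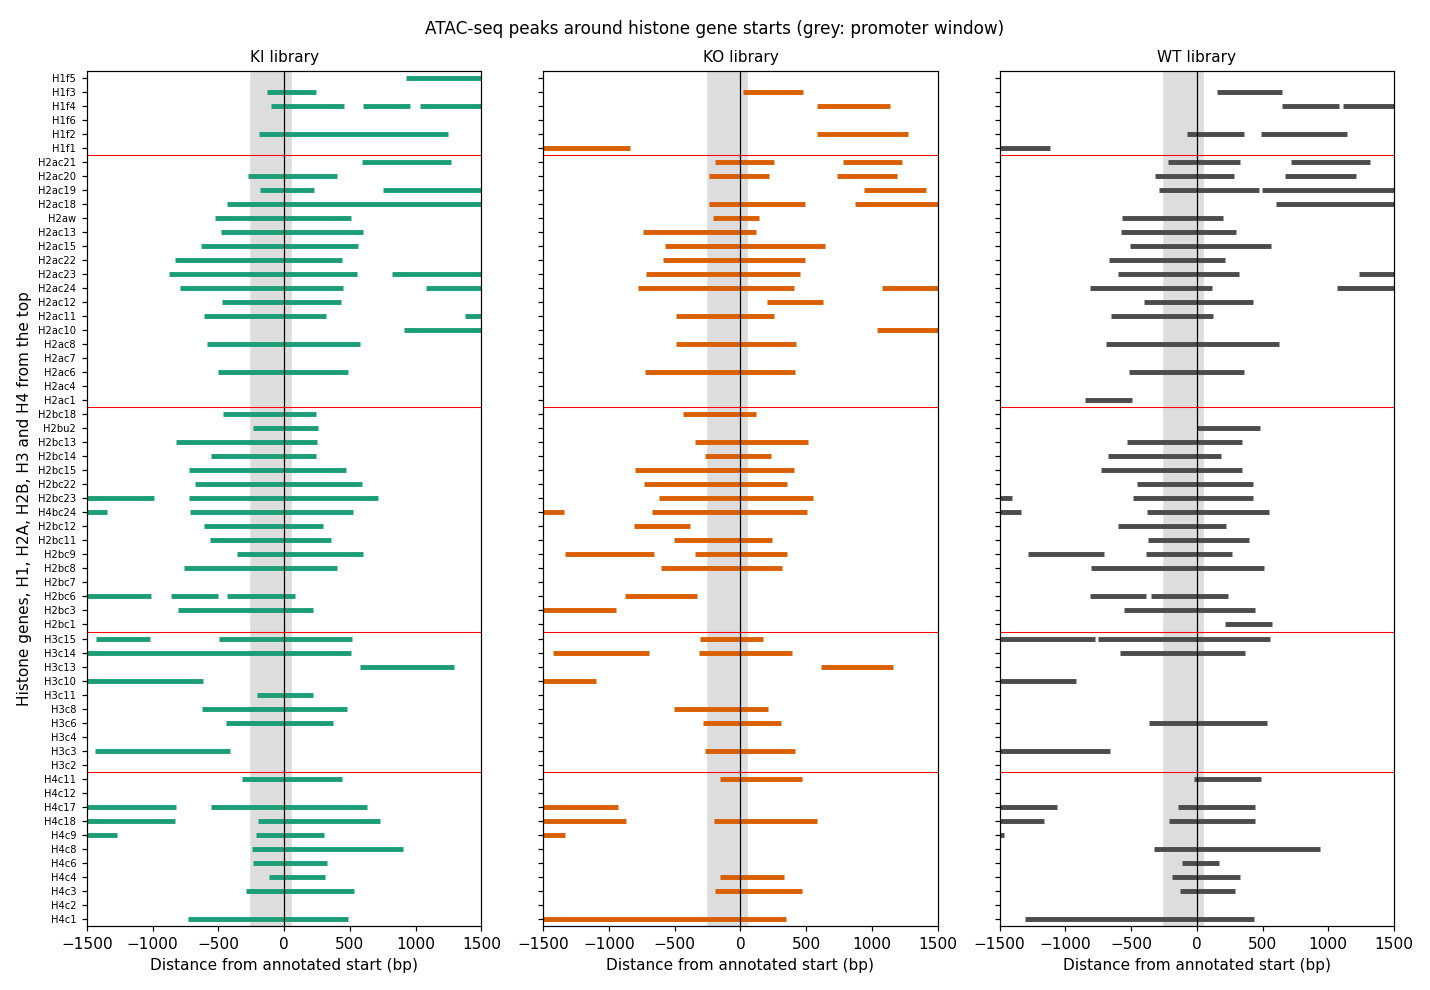
Position of peaks (bars) from 1500 bp before to 1500 bp after the annotated start of each of the 61 histone genes with a known start (rows, grouped by class and split by red lines) in the KI, KO and WT libraries. The horizontal axis is distance from the start in bp and grey marks the promoter window. Bars cross the start in 44 rows in KI, 32 in KO and 37 in WT.

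The centre of the best peak lay at a median of -16 bp from the start in KI, -34.5 bp in KO and -29 bp in WT, where negative values are upstream, and the start itself was inside a peak in 44 of 61 genes in KI, 32 in KO and 37 in WT. As most of the genes are short, peaks also ran over their bodies. Over the short genes with a peak, 52 in KI, 46 in KO and 47 in WT, they covered a median of 82.2% of the gene in KI, 56.9% in KO and 72.9% in WT.

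Linker histones bind the DNA between nucleosomes, and the coverage of their genes is given gene by gene. H1f2 was under a single peak of 1442 bp in KI, at percentile 78.4, that took in its promoter. In KO the peak was 690 bp, at percentile 31.6, and began inside the gene, and in WT the best of 2 peaks was at percentile 43.0 with the other over the promoter. H1f3 had its peak over the start in KI, at percentile 40.8. Its KO peak, at percentile 38.3, touched 34 bases of the promoter window, and its WT peak, at percentile 6.3, lay wholly inside the gene. H1f4 had best peaks at percentile 46.5 in KI, 3.1 in KO and 38.6 in WT, which lay at or beyond its end and also serve H2bc6, and only KI had a further peak over 148 bases of its promoter window. H1f5 was called in KI alone and H1f1 in KO alone, as given above, and neither promoter window was touched in any list. H1f6, the testis-specific linker histone H1t, had no gene-end peak in any list.

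Some H2A and H2B genes were covered as divergent pairs. In 10 pairs the starts lay 164 to 281 bp apart. A single peak spanned both starts in 8 pairs in KI, 7 in KO and 8 in WT, with median widths of 1182.5 bp in KI, 1085 bp in KO and 900.5 bp in WT. The pair H2ac12 and H2bc12 was the one missing in KO. Its peak was chr13:22035212-22036117 in KI, at percentile 79.7, and chr13:22035218-22036042 in WT, at percentile 66.5, and both take in the whole gap printed above. The KO peak was chr13:22035013-22035440, at percentile 33.8, within and beyond the far part of H2ac12, and stopped 381 bp short of H2bc12. The pair H2ac22 and H2bc22 was spanned in every list, at percentile 74.2 in KI, 57.2 in KO and 74.1 in WT. H2bc1 with H2ac1, and H2bc7 with H2ac7, had no peak over their shared gap in any list.

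An H3 gene and an H2B gene in one stretch of chromosome 13 were covered differently in KO. In KO a peak at chr13:23745107-23745791, at percentile 68.3, covered the whole promoter window of H3c3 and stopped 943 bp short of H2bc3. KI had chr13:23745930-23746956, at percentile 31.1, and WT chr13:23746182-23747177, at percentile 59.6, and both covered the whole promoter window of H2bc3 and left that of H3c3 untouched. The intervals in KO and those in KI and WT do not overlap. All 3 libraries therefore count as having a gene-end peak at H3c3, although not at the same place.

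When overlapping peaks of the 3 lists were merged, the histone genes lay at 41 regions. Of these, 25 (61.0%) had a peak in every list, against 37.5% of 32768 regions of the whole lists. A further 6 (14.6%, against 7.71%) were in KI and WT, and 4 (9.76%, against 29.3%) in KI alone. KI and KO shared 2 (4.88%, against 10.7%), KO and WT shared 2 (4.88%, against 1.31%), and KO alone and WT alone had 1 each. The histone regions were chosen by gene-end peaks, whereas the regions of the whole lists include those away from gene ends. The like set, gene-end regions of all genes, was not computed. These contrasts therefore do not separate histone genes from gene ends in general. Within the 25, peaks covered 25309 bp in KI, 20192 bp in KO and 21670 bp in WT, with a median per region of 953 bp in KI, 694 bp in KO and 875 bp in WT. KI was wider than WT at 17 of 25 regions and wider than KO at 20, and KO was narrower than WT at 13. Peak width moves with the depth and calling of each library, which are not known here.

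**Figure D5:**
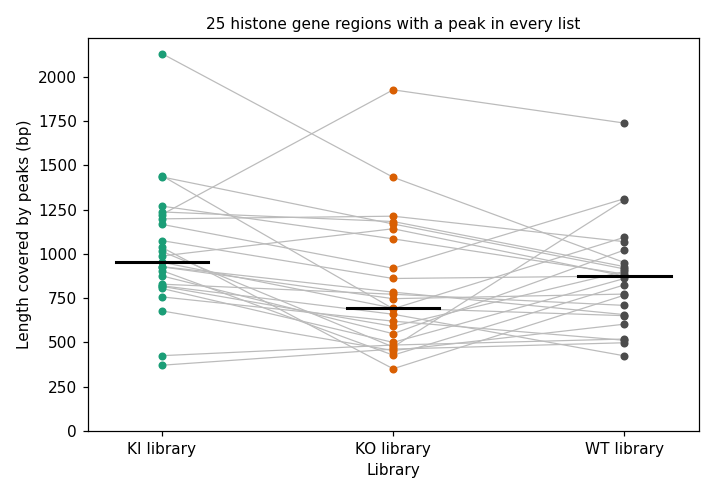
Length covered by peaks, in bp, in each of the 25 histone gene regions with a peak in every list, for the KI, KO and WT libraries. Points are regions, grey lines join the same region, and black bars are medians, at 953 bp in KI, 694 bp in KO and 875 bp in WT.

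The 8 genes without a gene-end peak in any list lay in a few places on chromosome 13. H2bc7, H2ac7 and H3c4 formed a run of 2507 bp, and H2ac4, H3c2 and H4c2 a run of 6299 bp. The others were H4c12 and H1f6. The nearest peak was 1382 to 6554 bp from these genes over the 3 lists. The H4c2 promoter printed above holds GGTCC like those of covered H4 genes, so these letters alone do not separate covered from uncovered H4 genes. H4c12 was the only one of the 8 that shares a 50-base stretch with another histone promoter, 11.6% of its stretches with H4c11. Over all 61 promoters, 12 share such stretches, H2bc23 and H4bc24 over their full length, and values at these genes are uncertain for that reason.

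Of 71 other protein-coding genes in the 3 windows, 15 had a gene-end peak in KI, 11 in KO and 9 in WT. The 36 vomeronasal receptor genes (Vmn1r) among them, which sit between the histone groups of chromosome 13 and are used in the nose, had none in any list.

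Most of the listed genes that make and handle histones had a gene-end peak in every list. Over all genes the shares with one were 51.4% in KI, 44.2% in KO and 44.2% in WT. All 21 factors of histone gene transcription and mRNA end processing had a gene-end peak in KI, KO and WT. Npat stood at percentile 96.4 in KI, 79.5 in KO and 93.8 in WT, and Slbp at 95 in KI, 92.8 in KO and 86.1 in WT. Of 19 histone chaperone genes, 19 in KI, 19 in KO and 18 in WT had a peak, and the exception was Supt16, a subunit of the FACT complex, at percentile 54.8 in KI and 43.4 in KO. Of 23 S phase and mitosis genes, 23 in KI, 21 in KO and 21 in WT had one. Tyms, which makes thymidylate, had a peak at percentile 35.6 in KI and 28.5 in WT and none in KO. Ccnb2, a mitotic cyclin, had one at 59.5 in KI alone, and the mitotic kinase gene Aurkb had one at 16.3 in KI and 20.9 in KO. Of 12 histone genes outside the clusters, most of them for replication-independent variants, 9 in KI, 7 in KO and 7 in WT had one. H3f3b, Macroh2a2 and H1f10 had none in any list. The extra genes in KI were Macroh2a1, for a large H2A variant, at percentile 39.2, and H1f0, for the linker histone of resting cells, at 42.6. Of all genes without a WT peak, 15.5% had one in KI and 8.21% in KO. Of all genes with a WT peak, 10.5% had none in KO.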

How the data were processed

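Each of the 3 ATAC-seq libraries was used as the peak list that the authors deposited, with position and a score per peak. What that score measures is not stated there, and neither are the aligner and the peak caller's version. Peak names hold the word MACS, per the files, and mm10 and CASAVA are named per the submitters' processing notes. Genes came from RefSeq GRCm38.p6, with sequences from its promoter table. A gene-end peak overlaps, by at least 1 bp, the 1 kb around either gene end. The gene-end calls were tested on simulated data. Python 3.11.15, statsmodels 0.14.6 (Wilson intervals) and matplotlib 3.10.9 were used. Intervals cover counting over genes only, which share peaks, and not reads or replicates. The histone genes, gene lists and alternatives were chosen with earlier results of these data known. Named genes are those whose calls differ between lists, the highest and lowest of each class in WT, all H1 genes, Mtor, and members of fixed lists that differ. Promoter-window genes, divergent pairs, peakless runs, H3c3, Npat and Slbp were chosen after their values were seen.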

Additional observations from a re-analysis of the deposited data

How the results depend on the processing

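Of 140 values recomputed for 19 counts and medians, 110 stayed within their limit and 30 did not. The limit was 1.5 times for a count and, for a median, its 95% binomial interval over genes, such as 767 to 886 bp for the WT median width and 55.2 to 66.0 for the KI median percentile. Keeping only peaks with a score of at least 100 moved most of these. Genes with a gene-end peak were then 22 in KO and 24 in WT. The losses that follow are out of these genes, and the gains are out of the rest of the 69. Gains and losses were 21 and 5 in KI against WT, 8 and 10 in KO against WT, and 22 and 4 in KI against KO. Over all genes the shares gained and lost were 16.2% and 2.9% in KI against WT. They were 5.82% and 16.4% in KO against WT, and 17% and 2.43% in KI against KO. The peaks at histone genes numbered 22 in KI, 10 in KO and 12 in WT, and regions in all lists 6. The median width was 1155.5 bp in KO and 893.5 bp in WT, against 861 bp with all peaks, and the median percentile 35.3 in KI, 25.8 in KO and 14.6 in WT. With lists of equal length, KI gained 2 and lost 6 against WT and lost 6 against KO, and the KI median percentile was 44.2. With a window of 500 bp, with one of 2500 bp, or when a loss required that no overlapping peak remained, KI lost 0 against KO. The 2500 bp window left 3 genes gained in KO against WT. With the promoter window, added after the data were examined, 33 genes had a peak in KO, KO lost 10 against WT and KI lost 1 against WT. Against KO, KI then gained 13 of 28 and lost 2 of 33, beside 13.4% and 3.31% of all genes. The score threshold and equal lengths keep fewer peaks by construction, and for the other settings the cause was not tested. No paired analysis was possible because each genotype had 1 ATAC-seq library, and the shared replicate numbers belong to RNA-seq samples. Depth is unknown, and a missing peak is not shown to be closed chromatin.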
